A study of Homo sapiens with 9 samples.

Results

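The interferon response genes described here are 40 named genes, chosen by symbol from the 38478 gene rows of the deposited table, and all 40 were found. They comprise the 4 genes of the OAS family (OAS1, OAS2, OAS3 and OASL), the interferon-activated transcription factors, sensors of foreign RNA, and the antiviral effectors that interferon is known to induce. The cells were OPM-1, a human myeloma line of plasma cell origin, and their poly(A)-selected RNA was sequenced. The 9 libraries form 3 groups of 3. In the gFBXW7 + gKMT2D group the cells stably expressed targeting RNAs against FBXW7 and KMT2D together, in the gFBXW7 group against FBXW7 alone, and in the gLuc group, the control, against luciferase. All 9 libraries share the parental line, the culture medium and the genotype label WT, and no interferon or other agent is named in the labels. The series asks what losing FBXW7, with or without KMT2D, does to messenger RNA. By which method the RNAs act, and whether the lines are clones or pools, the labels do not say.

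Interferons are secreted proteins that bind receptors on the cell surface and, through the kinases JAK1 and TYK2, lead to a complex that contains STAT2 and IRF9. This complex binds the interferon-stimulated response element (ISRE) in the promoters of many antiviral genes, and a further element, the gamma-activated site (GAS), serves interferon gamma. Many of these genes lie silent until interferon arrives, whereas others are transcribed at a basal level in unstimulated cells. The OAS enzymes are synthetases that, on binding double-stranded RNA, make short adenylate chains, a signal that leads to the breakdown of RNA in the cell.

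The promoters are shown first because 16 of the 30 examined carried the letters of the ISRE. RefSeq promoters (GRCh38.p14) were matched for 30 of the 40 genes, and the 250 bases before the start were searched on both strands for the ISRE letters GAAANNGAAA and, separately, for the GAS letters TTCNNNGAA. The ISRE letters stood in 16 of the 30 promoters (53.3%), against 1061 of all 35116 promoters of the table (3.02%). The GAS letters stood in 7 of the 30 (23.3%), against 6.57% of all promoters. A match is a description of the letters and not a site shown to be bound. The windows below, of 40 bases each and written 5′ to 3′ on the strand of the gene, come from 4 genes with hardly a read in these libraries and then from 4 that were expressed. They lie at chr12:112938316-112938355 for OAS3, chr10:89392492-89392531 for IFIT1, chr4:88456979-88457018 for HERC5, chr1:78620269-78620308 for IFI44L, chr19:17405736-17405775 (minus strand) for BST2, chr15:88638932-88638971 for ISG20, chr1:1013369-1013408 for ISG15 and chr11:313985-314024 for IFITM1. Capitals mark the ISRE letters, which appear as TTTCNNTTTC where the match is on the other strand and run together where matches overlap.
OAS3: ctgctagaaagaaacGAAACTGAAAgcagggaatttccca
IFIT1: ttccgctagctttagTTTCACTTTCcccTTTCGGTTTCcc
HERC5: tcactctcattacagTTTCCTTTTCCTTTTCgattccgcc
IFI44L: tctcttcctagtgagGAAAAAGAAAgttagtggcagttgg
BST2: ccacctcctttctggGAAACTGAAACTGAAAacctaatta
ISG20: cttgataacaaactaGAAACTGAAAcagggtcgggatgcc
ISG15: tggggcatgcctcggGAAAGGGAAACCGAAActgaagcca
IFITM1: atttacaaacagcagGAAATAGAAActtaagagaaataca

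The element therefore stood both in promoters of genes that were nearly silent and in that of BST2, the most abundant of the 40. Among members expressed enough to be tested (below) it was found in 7 of 18 promoters (38.9%), and among the others in 9 of 12 (75%). The order was the opposite for the GAS letters, found in 7 of the 18 and in 0 of the 12. OAS1 had no ISRE letters in its window and had GAS letters 168 bases before the start. No match says only that these letters are not in the window, and these shares are given without a test.

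The libraries held 16337492 to 27076242 counts, the deepest being gFBXW7 + gKMT2D 2. Ribosomal protein genes took the largest share of the counts in gFBXW7 + gKMT2D 3, 11.2%, against 5.03% to 8.56% in the others. In that library genes under 2000 bases sat 0.364 above their mean level on the log2 scale. Genes of at least 6000 bases sat 0.201 below it (medians over genes). The shift ran the other way in gFBXW7 + gKMT2D 2, at -0.293 for the short and 0.21 for the long genes. It did so too in gLuc 3, at -0.317 and 0.243. The remaining libraries lay between these on both measures. Transcripts of mitochondrial DNA took 2.04% to 3.67% of the counts in gFBXW7 + gKMT2D, 0.638% to 1.54% in gFBXW7 and 1.64% to 3.33% in gLuc, the lowest share being that of gFBXW7 1. FBXW7 was at 45.2 to 71.7 CPM and KMT2D at 28.6 to 107 CPM, with overlapping groups, so neither transcript level separated the groups. CPM here are counts relative to library size after scaling by TMM (trimmed mean of M values). Plasma cell markers, 10 of 10 detected, summed to 11240 to 17260 CPM. Of 24 markers of other cell types 9 had no read, and the 24 summed to 25.63 to 46.14 CPM in gFBXW7 + gKMT2D, 35.7 to 46.29 CPM in gFBXW7, with 24.56 to 42.72 CPM in gLuc, nearly all of it from HBB (21.8 to 43.7 CPM). Among the markers at 0 were CD2 and NKG7 of T and NK cells, FCGR3A of myeloid cells and CLEC4C and LILRA4 of plasmacytoid dendritic cells, which are known for high interferon output. Other markers were not at 0: CD3E had 22 and KLRD1 16 counts for T and NK cells. CD14 had 14 and LYZ 19 counts for myeloid cells, each of these genes in 8 libraries. In bulk libraries fewer cells expressing a gene and less RNA per cell cannot be told apart.

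The 40 genes ranged from no read at all to among the most abundant transcripts of the cell. On the length-corrected scale of the deposited RPKM, in which a count is divided by gene length and library total, averaged over the 9 libraries, 19 of the 40 lay under 0.1, 7 between 0.1 and 1, 12 between 1 and 10, and 2 at 10 or over. All gene rows of the table divided differently, with 62.2% under 0.1, 10.9% and 14.2% in the middle classes and 12.7% at 10 or over. The 40 genes thus had a larger share between 0.1 and 10 and a smaller share at both ends, a description with no test. The 19 lowest genes together gave 137 counts of 61223888 in gFBXW7 + gKMT2D, 141 of 55067736 in gFBXW7 and 170 of 55679790 in gLuc.

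**Figure D1:**
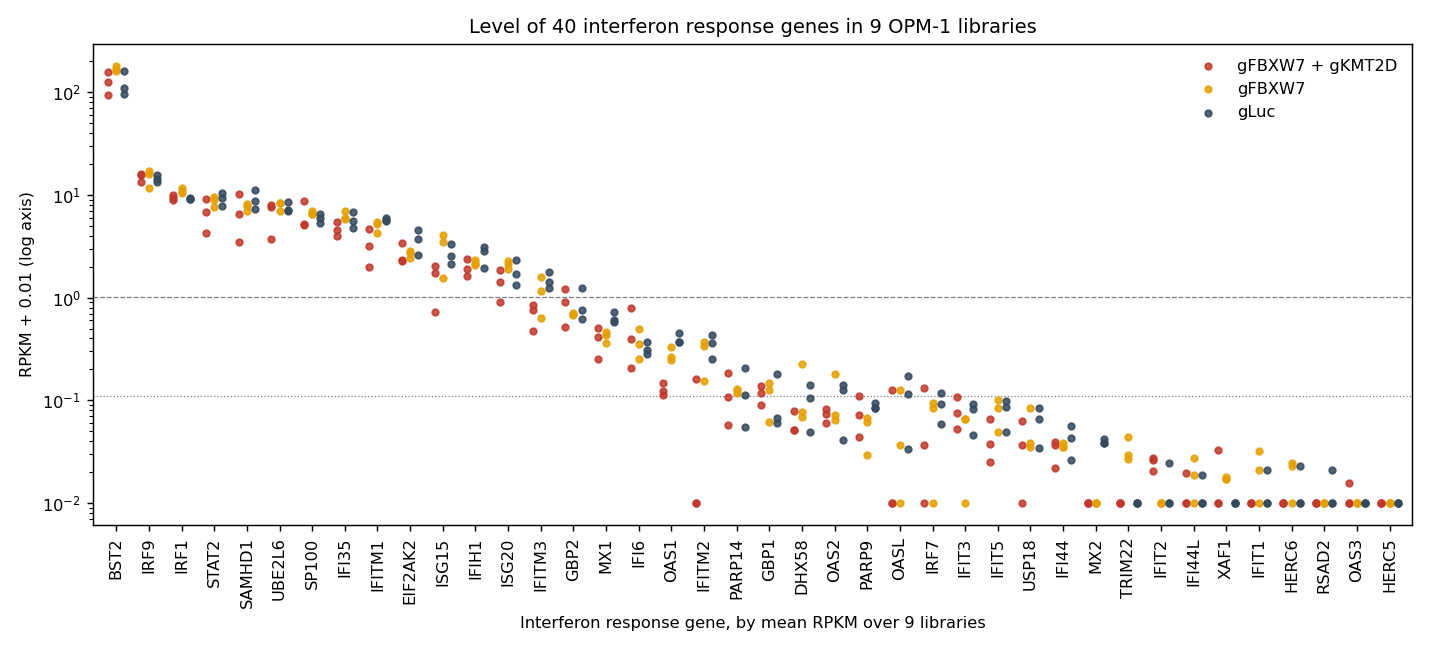
RPKM plus 0.01 on a log axis for the 40 interferon response genes, ordered by their mean over 9 libraries, with 1 point per library coloured by group. The dashed line marks 1 RPKM and the dotted line 0.1 RPKM: BST2 averaged 139 RPKM and IRF9 14.8, and 19 genes lay under 0.1 RPKM on average.

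The nearly silent genes include those most often used as readouts of interferon treatment. HERC5, the ligase that attaches ISG15 to proteins, had 0 counts in all 9 libraries, which allows up to 3 counts of 171971414, or 0.017 CPM (counting error only). RSAD2, the antiviral enzyme viperin, had 1 count in 1 library. The IFIT family, whose products bind viral RNA and block its translation, had 23 counts over its 4 genes in gFBXW7 + gKMT2D, 24 in gFBXW7 and 27 in gLuc. IFIT1 had 4 counts in all, IFI44L 5 and XAF1 6, while IFI44 was found in every library with 2 to 5 counts. MX2 was read only in gLuc, with 2, 2 and 2 counts there against 0 in the other 6 libraries, and TRIM22 only in gFBXW7, with 1, 1 and 2 counts. These last 2 genes were singled out after their values were seen, and a group at 0 counts may still hold up to 3.

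Further up the range stood genes of several roles, and at its top a surface protein. BST2, or tetherin, which holds budding virus particles on the cell and is known as a surface antigen of plasma cells, supplied 32.3% of all counts of the 40 genes in gFBXW7 + gKMT2D, 37.5% in gFBXW7 and 29.7% in gLuc. Its mean of 139 RPKM lay above 98.2% of all genes with reads. IRF9 averaged 14.8 RPKM, IRF1 9.87, STAT2 8.19, the dNTP hydrolase SAMHD1 7.81 and UBE2L6, which loads ISG15 for conjugation, 7.27 RPKM. ISG15 itself, a ubiquitin-like protein, averaged 2.4 RPKM. The remaining genes grouped with ISG15 among the 40 were lower, USP18, which removes ISG15 from proteins, at 0.04 RPKM, HERC6 at 0.00444 and HERC5 at 0. Between 0.1 and 1 RPKM lay OAS1, IFITM2, the GTPases MX1 (0.471), GBP2 (0.805) and GBP1 (0.1), the membrane protein IFI6 (0.375) and the ADP-ribosyltransferase PARP14 (0.112).

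The genome places many of the 40 side by side, and neighbours differed in level. On chromosome 12 (GRCh38, GENCODE v29), OAS1 (112906777 to 112933222), OAS3 (112938352 to 112973249) and OAS2 (112978395 to 113011723) lie in a row on the plus strand with gaps of 5129 and 5145 bases. Over the 9 libraries OAS1 and OAS2 had 143 and 94 counts, while OAS3 between them had 1. OASL stands apart at 121019111 to 121039242 on the same chromosome and had 25 counts. On chromosome 21 MX1 averaged 0.471 RPKM and MX2, which ends 10913 bases before it, 0.00981 RPKM. Of the IFITM genes of chromosome 11, IFITM1 averaged 4.65 RPKM, IFITM3 1.09 and IFITM2 0.222. The IFITM levels are uncertain, because 32% of the 50-base words of IFITM1 transcripts, 34.1% of IFITM2 and 17.4% of IFITM3 occur in another gene. The same holds for IRF9 (43.6%, nearly all shared with the readthrough gene AL136295.5) and USP18 (23.4%, shared with USP41). OAS1, IRF1, EIF2AK2, MX1, IFITM3, ISG15, SAMHD1, SP100 and PARP9 overlap an exon on the other strand, and the strand setting of the counting is not given in the sources used here, so reads of such partners may be included.

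The OAS family was expressed at a low level, and OAS1 was its member with the most counts. OAS1 had 8, 9 and 6 counts in the gFBXW7 + gKMT2D libraries, 20, 14 and 15 in gFBXW7 and 23, 20 and 28 in gLuc. Scaled for depth these are 0.449, 0.306 and 0.431 CPM with both RNAs, 1.08, 0.833 and 0.764 CPM with gFBXW7 and 1.22, 1.13 and 1.36 CPM with gLuc. The 3 groups did not overlap: every library with both RNAs was below every gFBXW7 library, and these were below every gLuc library. On the RPKM scale OAS1 averaged 0.117 ± 0.0183 in gFBXW7 + gKMT2D, 0.271 ± 0.0431 in gFBXW7 and 0.388 ± 0.0485 in gLuc (SD, n = 3 each).

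Neither the edgeR quasi-likelihood test with Benjamini-Hochberg adjustment over all 13262 genes nor DESeq2 called OAS1. In gFBXW7 + gKMT2D against gLuc its log2 fold change by edgeR was -1.68 (SE 0.28, adjusted p = 0.17), with an unadjusted p of 0.000153 that ranked 12 among the 13262 genes, and the adjusted p by DESeq2 was 0.065. Against gFBXW7 the log2 fold change was -1.21 (SE 0.29, edgeR adjusted p = 0.70), and in gFBXW7 against gLuc it was -0.47 (SE 0.25, edgeR adjusted p = 0.96). OAS1 entered the test only through the gFBXW7 and gLuc libraries, since all 3 libraries with both RNAs lay under the minimum of 0.524 CPM that the filter set, so the filter itself favoured a low value in that group. With each library left out in turn, with or without the surrogate variable described below, the value lay between -1.86 and -1.48 against gLuc. As the groups did not overlap, leaving out 1 library could hardly turn its sign. Under the other scalings, filters, tests and models it ran from -1.74 to -0.31. The comparisons between groups share control libraries and are not independent of each other.

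The other members of the family gave no such order. OAS2 had 6, 13 and 7 counts in gFBXW7 + gKMT2D, 7, 19 and 8 in gFBXW7 and 4, 15 and 15 in gLuc, so that all groups overlapped. Its log2 fold change was -0.55 (SE 0.57) against gFBXW7 and -0.48 (SE 0.57) against gLuc in the gFBXW7 + gKMT2D libraries, with edgeR adjusted p-values of 1 and 0.90, and it was 0.07 (SE 0.54, edgeR adjusted p = 0.99) for gFBXW7 against gLuc. The first of these turned to 0.13 without gFBXW7 2. OAS2 lay over the filter minimum in 0 libraries with both RNAs, 1 of gFBXW7 and 2 of gLuc. The filter thus favoured a low value of OAS2 in the group with both RNAs. OASL, which lacks the synthetase activity of its relatives, had 0, 7 and 0 counts in gFBXW7 + gKMT2D, 5, 1 and 0 in gFBXW7 and 7, 4 and 1 in gLuc, and was too low to test, as was OAS3 with its single count in gFBXW7 + gKMT2D 2.

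**Figure D2:**
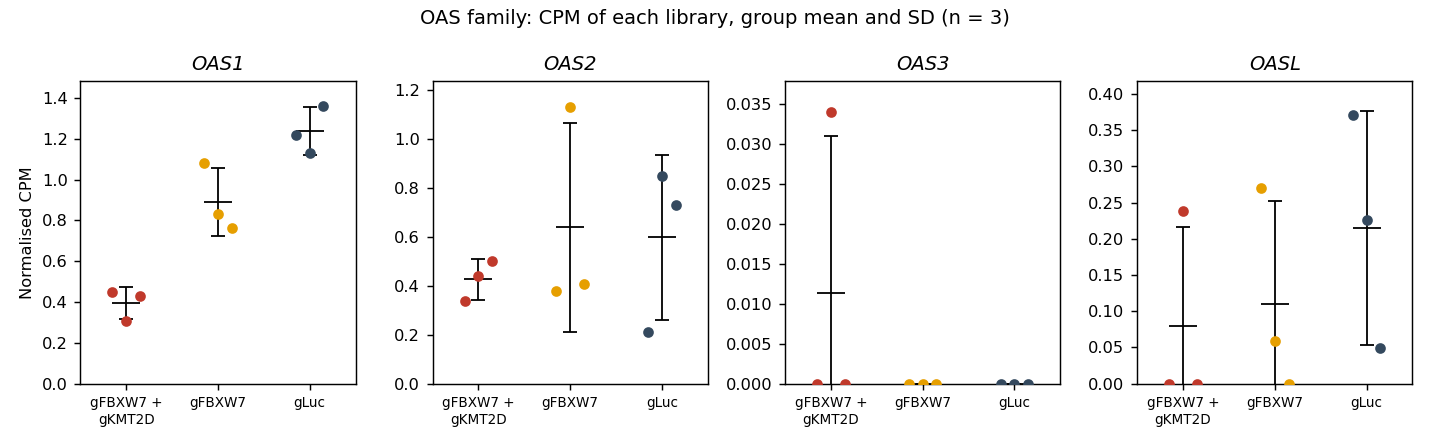
Normalised CPM of the 4 OAS genes in each library (points), with the group mean (wide bar) and SD (thin bars, drawn down to 0 at most), n = 3 per group and a separate linear axis from 0 for each gene. The OAS1 groups do not overlap, at 0.306 to 0.449 CPM in gFBXW7 + gKMT2D, 0.764 to 1.08 in gFBXW7 and 1.13 to 1.36 in gLuc, while those of OAS2 and OASL do and OAS3 has 1 count.

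PDE12, which degrades the adenylate chains that the OAS enzymes make, stood at 44.0 to 55.8 CPM over the 9 libraries.

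Upstream of the 40 genes, the receptors and kinases were expressed while the type I and type III interferons were not detectable beyond single reads. Of 21 ligand genes measured, 16 had no read in any library, IFNB1 among them, and 4 had 1 or 2 counts in all. IFNG was the exception, with 600 counts in all and 2.48 to 5.17 CPM. All 10 receptor and transducer genes of the list were tested, IFNAR1 at 80.9 to 145 and IFNAR2 at 140 to 218 CPM, and 0 passed the edgeR adjusted p of 0.05 in any of the 3 comparisons, with 0 at an unadjusted p under 0.05 and 0 called by DESeq2. Their median log2 fold change was 0.01 in gFBXW7 + gKMT2D against gFBXW7, -0.20 in gFBXW7 + gKMT2D against gLuc and -0.19 in gFBXW7 against gLuc.

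Of the transcription factors among the 40, STAT2, IRF9 and IRF1 were expressed and IRF7 was not. STAT2 had 36.6, 45.1 and 26.9 CPM in gFBXW7 + gKMT2D, 41.9, 51.9 and 46.7 CPM in gFBXW7, with 42.9, 48.2 and 52.3 CPM in gLuc, the lowest value being that of gFBXW7 + gKMT2D 3. IRF9, which gives the STAT complex its DNA contact, averaged 25.7 ± 1.5 CPM in gFBXW7 + gKMT2D, 25 ± 4.32 CPM in gFBXW7, with 23.5 ± 1.3 CPM in gLuc (SD, n = 3 each). IRF1, an activator that acts without the STATs once it is made, had 35.7, 30.6 and 37.4 CPM in gFBXW7 + gKMT2D, 38.4, 38.4 and 40.6 CPM in gFBXW7, with 33.5, 31.7 and 31.5 CPM in gLuc. Its gFBXW7 libraries stood above all the others. IRF7, the factor that amplifies interferon output in many immune cells, had 0 to 14 counts per library.

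The 3 sensors and kinases of double-stranded RNA differed in level. EIF2AK2, the kinase PKR that halts translation, averaged 27.7 ± 4.14 CPM in gFBXW7 + gKMT2D, 27.5 ± 1.51 CPM in gFBXW7, with 36.3 ± 8.19 CPM in gLuc. IFIH1, which senses long double-stranded RNA, averaged 7.19 ± 0.598 CPM in gFBXW7 + gKMT2D, 7.87 ± 0.244 CPM in gFBXW7, with 9.11 ± 1.85 CPM in gLuc (SD, n = 3 each for both genes). DHX58, its relative without a signalling domain, had 2 to 11 counts per library. The adapter MAVS, on which IFIH1 and the sensor RIG-I converge, stood at 64.4 to 92.5 CPM, while DDX58, the gene of RIG-I, had 0.281 to 0.877 CPM.

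The question of gFBXW7 + gKMT2D against gFBXW7 is what the KMT2D-targeting RNA changed beyond the one against FBXW7. Of the 20 interferon response genes that could be tested, 0 passed an adjusted p of 0.05 by edgeR, against 8 of all 13262 genes (0.0603%), and DESeq2 called 0 of them as well. An unadjusted p under 0.05 was given to 2 members, OAS1 and IFITM1, both lower, against 4.22% of all genes. The libraries of the groups did not overlap for 3 members lower (OAS1, IFI35 and IRF1), against 5.2% of all genes, and for 0 members higher, against 4.35%. The log2 fold change was negative for 16 of the 20, against 45.4% of all genes, with a median of -0.23 beside 0.02 for all genes. These counts cover only the members that passed the filter, 6 of which lay under its minimum in at least 1 library, so they describe the list and are no test of it. Over the 11 members of at least 2 log2 CPM the median was -0.19, with 9 of them negative. In the same comparison 13 of 13 transcripts of mitochondrial DNA had positive values (median 1.26), 10 of them without overlap, with 0 called by edgeR and 5 by DESeq2. The median of the 20 members was -0.22 without gFBXW7 1, the library with the lowest mitochondrial share, and -0.15 without gFBXW7 2. The part of the mitochondrial share in the members' values was not tested.

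Among the members with substantial counts the values were modest. ISG20, an exonuclease that degrades single-stranded RNA, had 8.93, 5.19 and 13.6 CPM in gFBXW7 + gKMT2D, with 13.7, 14.3 and 11.7 CPM in gFBXW7, a log2 fold change of -0.54 (SE 0.34). BST2 had 128, 88.6 and 190 CPM in gFBXW7 + gKMT2D, with 190, 170 and 159 CPM in gFBXW7, a log2 fold change of -0.36 (SE 0.29). In both genes gFBXW7 + gKMT2D 3 was as high as the gFBXW7 libraries and gFBXW7 + gKMT2D 2 was the lowest of the 6. The values moved to -0.91 for ISG20 and -0.67 for BST2 without gFBXW7 + gKMT2D 3, and to -0.24 and -0.13 without gFBXW7 + gKMT2D 2, with edgeR adjusted p-values from 0.61 to 0.88.

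IFI35, a protein that partners NMI in innate signalling, had 7.92, 5.33 and 7.75 CPM in gFBXW7 + gKMT2D, with 10.6, 8.75 and 8.36 CPM in gFBXW7, without overlap (log2 fold change -0.41, SE 0.22). STAT2 had a log2 fold change of -0.37 (SE 0.19), UBE2L6 of -0.28 (SE 0.22), IRF1 of -0.18 (SE 0.12) and IFIH1 of -0.13 (SE 0.17). The value of UBE2L6 was -0.07, and that of STAT2 -0.19, without gFBXW7 + gKMT2D 3. At the other end EIF2AK2 was at 0.01 (SE 0.18), IRF9 at 0.04 (SE 0.15) and SP100, a protein of nuclear bodies that restrict viral DNA, at -0.001 (SE 0.27). The edgeR adjusted p was 1 for each of these genes.

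The 7 tested members under 2 log2 CPM that are not OAS genes fall outside the rule for naming and lay on both sides of 0. ISG15 had 24, 13 and 19 counts in gFBXW7 + gKMT2D and 52, 39 and 20 in gFBXW7, a log2 fold change of -1.04 (SE 0.49). IFITM1, which blocks virus entry at membranes, had 3.37, 2.07 and 1.65 CPM in gFBXW7 + gKMT2D, with 3.84, 3.03 and 3.82 CPM in gFBXW7, a log2 fold change of -0.59 (SE 0.25). IFITM3 had 9, 15 and 5 counts in gFBXW7 + gKMT2D and 20, 13 and 8 in gFBXW7, a log2 fold change of -0.67 (SE 0.40). It lay over the filter minimum in 1 library with both RNAs, 2 of gFBXW7 and 3 of gLuc, which favoured a low value with both RNAs. PARP9, an ADP-ribosyltransferase that works with a ubiquitin ligase in interferon signalling, was the farthest on the other side. It had 10, 25 and 5 counts in gFBXW7 + gKMT2D and 9, 3 and 10 in gFBXW7, a log2 fold change of 0.64 (SE 0.43). PARP9 lay over the filter minimum in 2 libraries with both RNAs, 0 of gFBXW7 and 3 of gLuc. The filter thus favoured a low value in gFBXW7. GBP2, a GTPase, had 4.94, 3.43 and 2.44 CPM in gFBXW7 + gKMT2D, with 2.92, 2.74 and 2.85 CPM in gFBXW7, a log2 fold change of 0.35 (SE 0.31). MX1, a GTPase that traps viral nucleocapsids, was at -0.07 (SE 0.23) and PARP14 at -0.04 (SE 0.48). In all 7 genes the groups overlapped and the edgeR adjusted p was 1.

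**Figure D3:**
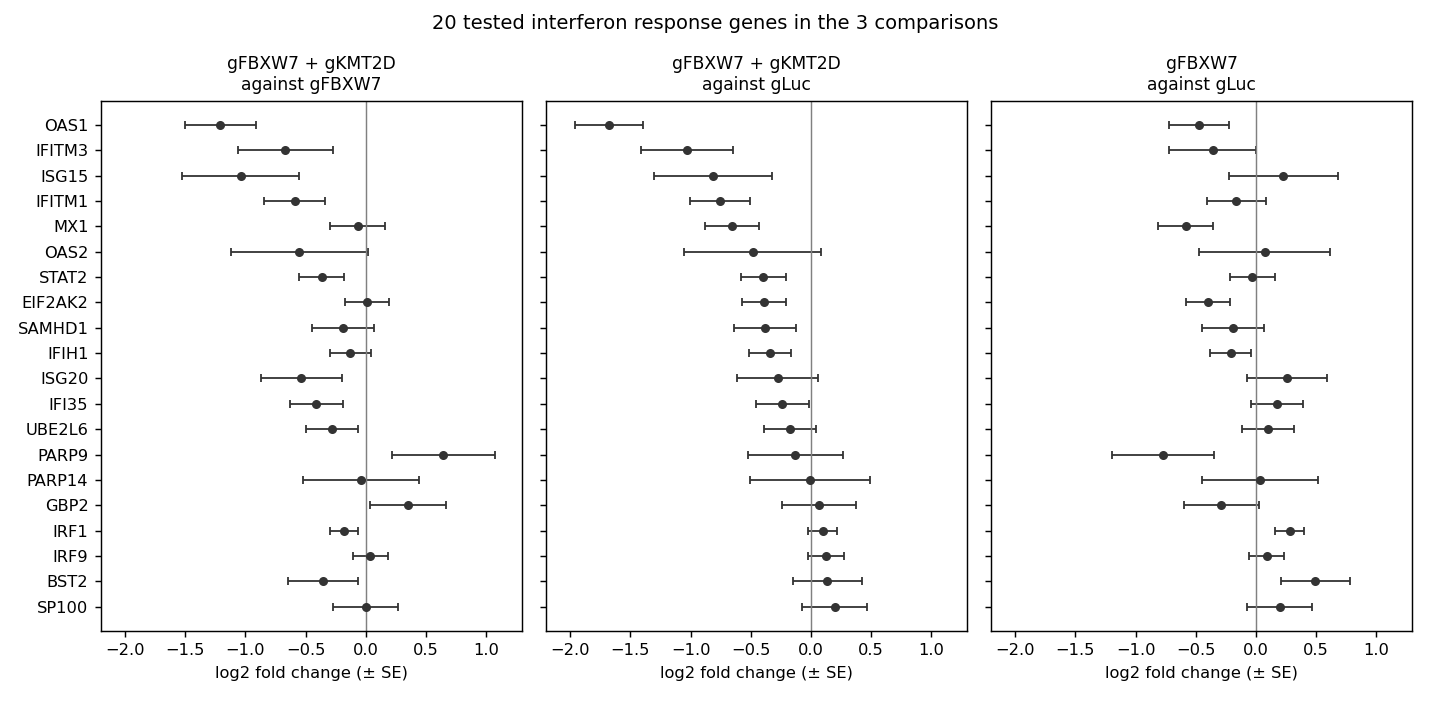
Log2 fold change (point) and its SE (bar) from the edgeR fit for the 20 interferon response genes tested, in 3 panels, 1 for each comparison, with genes in the order of the middle panel and a negative value meaning lower in the group named first. No gene passed an adjusted p of 0.05: OAS1 lies farthest from 0 at -1.21 and -1.68 in the first 2 panels, and 16, 15 and 10 of the 20 genes are negative.

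The question of gFBXW7 + gKMT2D against gLuc is the joint effect of both targeting RNAs. Again 0 of the 20 tested members passed the adjusted p of 0.05 by edgeR, against 7 of all genes (0.0528%), and 0 by DESeq2. The members with an unadjusted p under 0.05 were 4, all lower (OAS1, IFITM1, MX1 and IFITM3), against 3.61% of all genes, and these were also the 4 that lay lower without overlap, against 3.69%. None lay higher without overlap, against 3.28%. The log2 fold change was negative for 15 of the 20, against 50% of all genes, with a median of -0.31 beside 0.0002 for all genes. For the 11 members of at least 2 log2 CPM the median was -0.24, with 7 negative and 0 of them apart. The same limit on the members that passed the filter applies. Transcripts of mitochondrial DNA had positive values in 12 of 13 (median 0.33, 2 without overlap, 0 called by edgeR or DESeq2).

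Of the 3 genes beside OAS1, each was chosen for naming after its values were seen. MX1 had 2.92, 2.17 and 1.65 CPM in gFBXW7 + gKMT2D and 3.60, 3.17 and 3.90 CPM in gLuc, a log2 fold change of -0.65 (SE 0.23, edgeR adjusted p = 0.90). IFITM1, at 1.65 to 3.37 CPM in gFBXW7 + gKMT2D, had 4.24, 4.07 and 3.70 CPM in gLuc, a log2 fold change of -0.76 (SE 0.25, edgeR adjusted p = 0.90). IFITM3 had 0.505, 0.509 and 0.359 CPM in gFBXW7 + gKMT2D and 1.22, 0.791 and 0.877 CPM in gLuc, a log2 fold change of -1.03 (SE 0.38, edgeR adjusted p = 0.90). It lay over the filter minimum in 1 library with both RNAs, 2 of gFBXW7 and 3 of gLuc. The filter thus favoured a low value of IFITM3 in the group with both RNAs. With single libraries left out the log2 fold change lay between -0.87 and -0.50 for MX1, -1.08 and -0.59 for IFITM1 and -1.15 and -0.83 for IFITM3. As the groups of these genes did not overlap, leaving out 1 library could hardly turn the sign. These ranges are therefore no further support. Reads of the IFITM genes can be split between them by the counting, as said above. ISG15 overlapped between the groups, at -0.81 (SE 0.49).

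The better expressed members lay closer together. STAT2 (-0.40, SE 0.19), EIF2AK2 (-0.39, SE 0.18), SAMHD1 (-0.38, SE 0.26), IFIH1 (-0.34, SE 0.17) and ISG20 (-0.28, SE 0.34) had the lowest log2 fold changes in gFBXW7 + gKMT2D against gLuc. SAMHD1 had 32.7, 47.1 and 20.5 CPM in gFBXW7 + gKMT2D and 37.3, 41.9 and 51.9 CPM in gLuc, and its value was -0.13 without gFBXW7 + gKMT2D 3. The highest were SP100 (0.20, SE 0.27), BST2 (0.14, SE 0.29), IRF9 (0.13, SE 0.15) and IRF1 (0.10, SE 0.12), with UBE2L6 at -0.18 (SE 0.22). SP100 had 39.9, 35.4 and 78.5 CPM in gFBXW7 + gKMT2D and 51.8, 43.6 and 38.6 CPM in gLuc, so that 1 library set the sign, which turned to -0.24 without gFBXW7 + gKMT2D 3. BST2 turned to -0.19 without the same library.

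**Figure D4:**
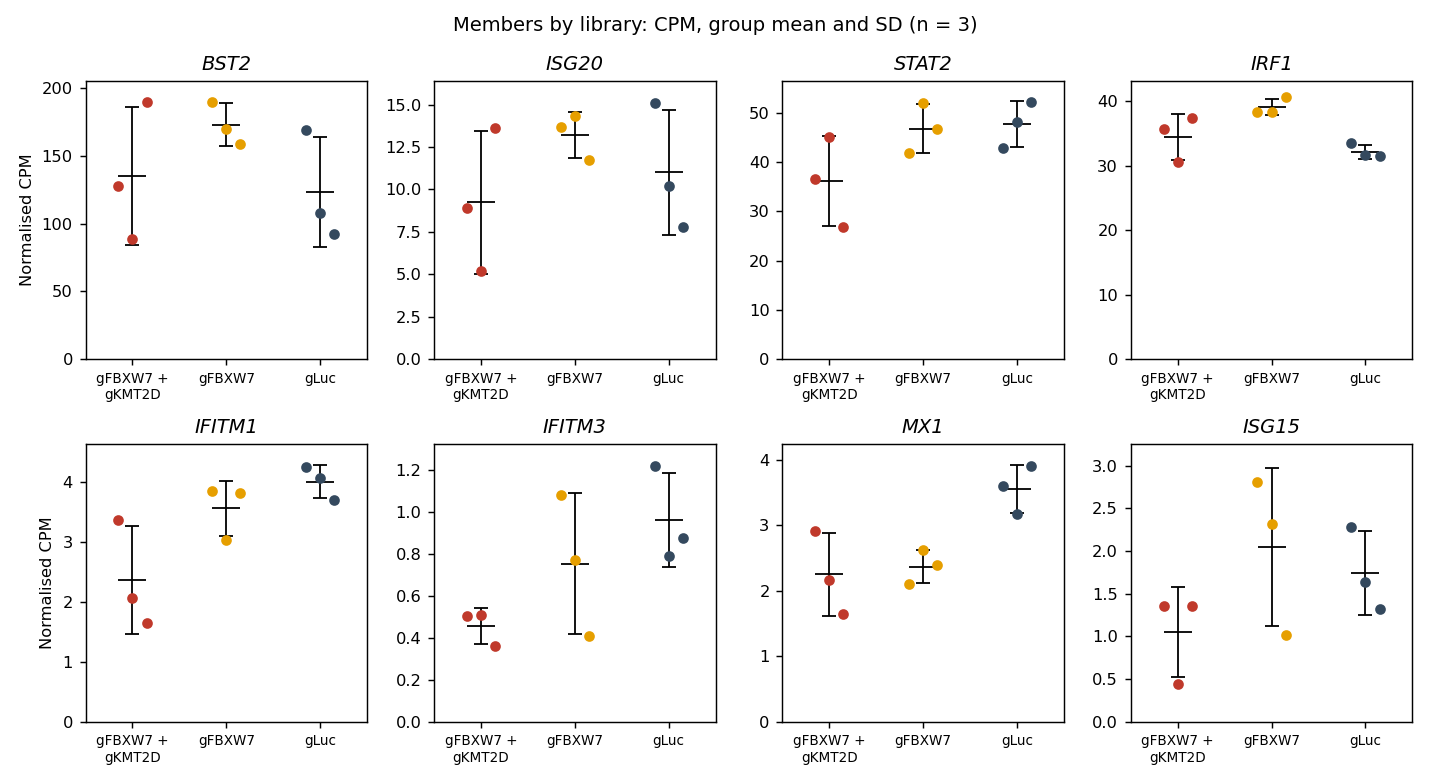
Normalised CPM of 8 interferon response genes in each library (points), with group mean (wide bar) and SD (thin bars), n = 3 per group and a separate linear axis from 0 for each gene. IFITM1, IFITM3 and MX1 lie lower in gFBXW7 + gKMT2D than in gLuc without overlap, and BST2 and ISG20 spread widely in gFBXW7 + gKMT2D (88.6 to 190 and 5.19 to 13.6 CPM) and in gLuc (92.1 to 169 and 7.80 to 15.1 CPM).

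The question of gFBXW7 against gLuc is what the FBXW7-targeting RNA changed alone. Here 0 of the 20 members and 0 of all 13262 genes (0%) passed the adjusted p of 0.05 by edgeR, and DESeq2 called 0 members and 1 gene. An unadjusted p under 0.05 was given to 2 members, against 1.58% of all genes, MX1 lower and IRF1 higher. Negative values were as frequent as positive, in 10 of the 20, against 50.7% of all genes, and the median was 0.003 beside -0.004. Transcripts of mitochondrial DNA had negative values in 13 of 13 (median -1.03, 8 without overlap, 0 called by edgeR or DESeq2). Without overlap 3 members lay lower (OAS1, MX1 and PARP9), against 4.49% of all genes, and 1 higher (IRF1), against 4.37%. The limit of the filter applies here too, since PARP9 lay over its minimum in 0 of the 3 gFBXW7 libraries and in all 3 of gLuc, which favoured a low value in gFBXW7.

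MX1 had 2.11, 2.62 and 2.39 CPM in gFBXW7, with 3.60, 3.17 and 3.90 CPM in gLuc, a log2 fold change of -0.59 (SE 0.23, edgeR adjusted p = 0.96). IRF1, with the per-library values given above, had a log2 fold change of 0.28 (SE 0.12, edgeR adjusted p = 0.96), between 0.25 and 0.31 when any single library was left out. As its groups did not overlap, leaving out 1 library could hardly turn the sign. BST2 had 190, 170 and 159 CPM in gFBXW7, with 169, 108 and 92.1 CPM in gLuc, a log2 fold change of 0.49 (SE 0.29, edgeR adjusted p = 0.96). Its highest gLuc library reached into the gFBXW7 range. EIF2AK2 was at -0.40 (SE 0.18), ISG20 at 0.26 (SE 0.33), IFIH1 at -0.21 (SE 0.17), SP100 at 0.20 (SE 0.27), SAMHD1 at -0.19 (SE 0.26), IFI35 at 0.17 (SE 0.22) and STAT2 at -0.03 (SE 0.19), all with an edgeR adjusted p of at least 0.96. PARP9 had 9, 3 and 10 counts in gFBXW7 and 13, 13 and 13 in gLuc.

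A difference between libraries of the same group runs through several members. A surrogate variable, a number per library that sva estimates from variation the groups do not explain, was -0.431 in gFBXW7 + gKMT2D 2 and 0.687 in gFBXW7 + gKMT2D 3, from -0.0163 to 0.212 in gFBXW7, and from -0.464 to 0.187 in gLuc. BST2 and ISG20 were low in libraries with a low value and high in those with a high one. The variable was estimated from the tested genes of the same libraries, BST2 and ISG20 included, so that their following it is no separate evidence. The share of ribosomal protein counts was 5.46% and 11.2% in those gFBXW7 + gKMT2D libraries, and 5.03% in gLuc 3, the library with the lowest surrogate variable. The part of RNA composition in these values was not tested.

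With this variable in the edgeR model 125 of the 13262 genes (0.943%) passed an adjusted p of 0.05 in gFBXW7 + gKMT2D against gFBXW7, and with them 2 of the 20 members, both lower. BST2 fell by 0.45 on the log2 scale (SE 0.080, edgeR adjusted p = 0.021) and ISG20 fell by 0.65 (SE 0.12, edgeR adjusted p = 0.023), while STAT2 lay just outside at -0.38 (SE 0.084, edgeR adjusted p = 0.053). Against gLuc, 54 genes (0.407%) and 1 member passed: OAS1 was at -1.74 (SE 0.31, edgeR adjusted p = 0.028), and ISG20 was at -0.64 (SE 0.13, edgeR adjusted p = 0.050, just above the threshold). The OAS1 call carries the limit given above: 0 of its 3 libraries with both RNAs, but all 3 of gFBXW7 and all 3 of gLuc, lay over the filter minimum, so it was tested only because of the groups in which it is high. In gFBXW7 against gLuc 0 genes and 0 members passed. In this model 16 of the 20 members were negative in each of the comparisons of gFBXW7 + gKMT2D, beside 52.1% of all genes against gFBXW7 and 53% against gLuc, with member medians of -0.29 and -0.27.

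These calls rest on few libraries and on a variable estimated from the same values that it adjusts. Refitted with single libraries left out, an alternative added after the data had been seen, the number of members called ran from 0 to 6 in gFBXW7 + gKMT2D against gFBXW7 and from 0 to 3 against gLuc. The call of OAS1 was lost without gFBXW7 + gKMT2D 2, gFBXW7 2 or any of the gLuc libraries (edgeR adjusted p = 0.068 to 0.53), with its value between -1.86 and -1.48. BST2 lost its call without gFBXW7 + gKMT2D 2 or any of the gFBXW7 libraries (edgeR adjusted p = 0.07 to 0.15), with its value between -0.49 and -0.41. ISG20 lost its call without gFBXW7 + gKMT2D 2 or 3, gFBXW7 2 or 3, or gLuc 2 (edgeR adjusted p = 0.055 to 0.18), with its value between -0.69 and -0.54.

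**Figure D5:**
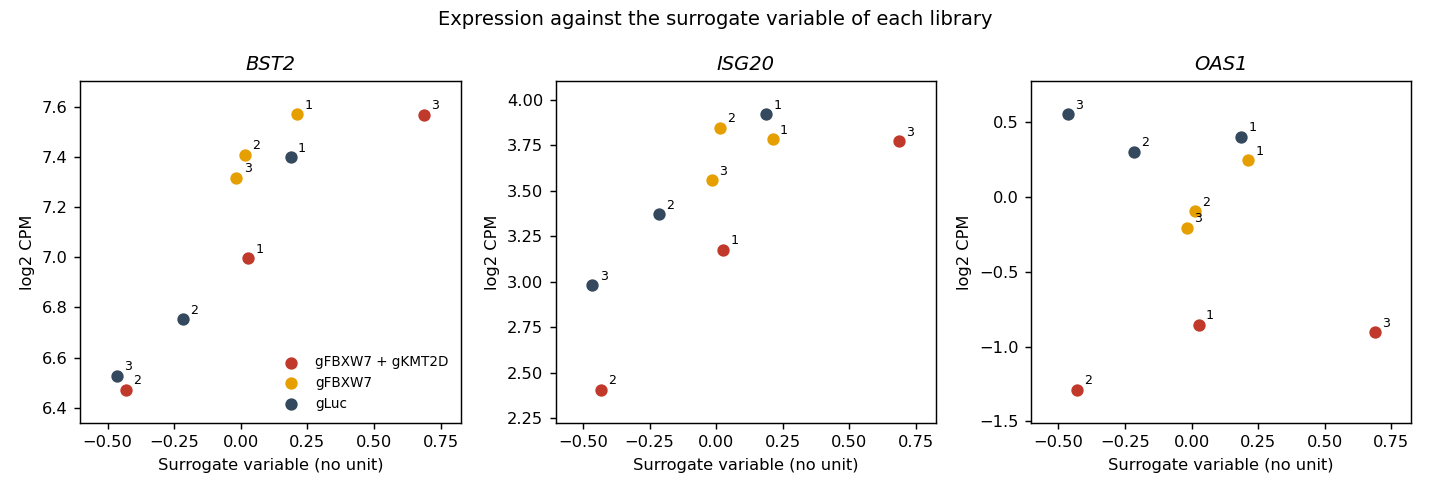
Log2 CPM of BST2, ISG20 and OAS1 (vertical axes) against the surrogate variable of each library (horizontal axes, no unit), with libraries coloured by group and numbered by replicate. BST2 and ISG20 follow the variable across the groups, with gFBXW7 + gKMT2D 2 low at -0.431 and gFBXW7 + gKMT2D 3 high at 0.687, whereas the 3 OAS1 values of gFBXW7 + gKMT2D lie below all others at each position. The variable was itself estimated from the tested genes, these 3 among them.

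Other genes of the pathway, from lists of textbook members, gave no call either. Of 43 further interferon-stimulated genes measured, 31 were tested and 0 passed the edgeR adjusted p of 0.05 in any comparison, with 0, 1 and 0 at an unadjusted p under 0.05 in gFBXW7 + gKMT2D against gFBXW7, in gFBXW7 + gKMT2D against gLuc and in gFBXW7 against gLuc, and 0 called by DESeq2. Their medians were -0.10, -0.04 and 0.03 in that order of comparisons, closer to 0 than those of the 20 tested members in the first and second. APOL6, a lipid-binding protein, was the 1 gene, with 99.7, 103 and 118 CPM in gFBXW7 + gKMT2D and 83.5, 91.9 and 83.3 CPM in gLuc (log2 fold change 0.31, SE 0.13, edgeR adjusted p = 0.90). Of 18 genes that sense nucleic acids upstream of interferon 14 were tested, and 0 passed by edgeR or DESeq2 in any comparison, with 1, 2 and 0 at an unadjusted edgeR p under 0.05 in the same order of comparisons, against 4.22%, 3.61% and 1.58% of all genes. TMEM173 was lower in both comparisons of gFBXW7 + gKMT2D and AIM2 was higher against gLuc. TMEM173, the STING adapter of DNA sensing, had 6.51, 6.82 and 4.81 CPM in gFBXW7 + gKMT2D, 7.08, 10.8 and 9.17 CPM in gFBXW7, with 8.59, 7.74 and 8.62 CPM in gLuc. Its groups did not overlap in either comparison of gFBXW7 + gKMT2D, with log2 fold changes of -0.56 (SE 0.20, edgeR adjusted p = 1) against gFBXW7 and -0.45 (SE 0.20, edgeR adjusted p = 0.90) against gLuc. AIM2, a sensor of DNA in the cytosol, had 9, 22 and 9 counts in gFBXW7 + gKMT2D and 7, 5 and 6 in gLuc, or 0.505 to 0.747 against 0.283 to 0.371 CPM, without overlap (log2 fold change 1.01, SE 0.42, edgeR adjusted p = 0.90). All 3 gLuc libraries lay under the filter minimum for AIM2, so it was tested only because of the other groups. Of 9 genes that restrain interferon signalling all were tested and 0 passed by edgeR or DESeq2, with 2, 1 and 0 at an unadjusted edgeR p under 0.05, all lower, against the same shares of all genes. SOCS3, an inhibitor of receptor-bound JAK kinases, had 2.25, 2.31 and 1.29 CPM in gFBXW7 + gKMT2D, 4.11, 3.99 and 3.52 CPM in gFBXW7, with 3.66, 3.11 and 4.14 CPM in gLuc. Every library with both RNAs was below all the others, with log2 fold changes of -0.96 (SE 0.23, edgeR adjusted p = 0.70) against gFBXW7 and -0.87 (SE 0.23, edgeR adjusted p = 0.90) against gLuc. PTPN6, a phosphatase that acts on JAK kinases, was at -0.44 (SE 0.16, edgeR adjusted p = 1) in gFBXW7 + gKMT2D against gFBXW7. AIM2 and SOCS3, both under 2 log2 CPM, fall outside the rule for naming and were chosen after their values were seen.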

How the data were processed

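Per the labels' protocols, poly(A) RNA was made into strand-specific libraries (dUTP). The submitters' processing notes name build GRCh38 and, without versions, the tools STAR, Trimmomatic, DESeq2 and featureCounts. Each gene and library has, per the file headers, a raw read count and an RPKM value. The authors' RPKM equals the count scaled by gene length and library total (largest relative difference 8.5e-07).

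The counts went into edgeR 4.0.16 (R 4.3.3): filterByExpr with the groups (13262 genes), TMM scaling, and a quasi-likelihood fit of all 9 libraries with group as its only term. Adjustment was by Benjamini-Hochberg over all tested genes, with a threshold of 0.05, and standard errors were derived from the fold change and F statistic. RPKM served for levels between genes. Groups are from the labels, which call the replicates independent, and totals of 16337492 to 27076242 counts limit precision for genes of few reads. Limma 3.58.1, DESeq2 1.42.0 and sva 3.50.0 gave the alternatives, and simulated data were used to test the fits. Correlations of deviations from the group means were over 0.1 in 4 of 9 same-numbered pairs of libraries and in 7 of 18 other pairs. These shares do not settle whether the replicates were paired, and no pairing was used in the main fit.

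Fold changes are given for the OAS genes and, per comparison, the 5 highest and 5 lowest members of at least 2 mean log2 CPM, with exceptions said to be so. Other lists name up to 3 genes per direction. The 40 genes and all lists were chosen with earlier results of these data known. Shared 50-base words and positions come from GENCODE v29, promoters from RefSeq (250 bases before the start). Figures used Python 3.11.15, pandas 2.3.3 and matplotlib 3.10.9.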

Additional observations from a re-analysis of the deposited data

How the results depend on the processing

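The number of members called stayed at 0 in all 3 comparisons under the other scalings, filters and tests, the 6 compared libraries alone, the replicate block and each library left out, and changed only with 1 surrogate variable, to 2 in gFBXW7 + gKMT2D against gFBXW7 and 1 against gLuc. With that variable and single libraries left out (added after the data were seen) it was 0 to 6, 0 to 3 and, in gFBXW7 against gLuc, 0. The number of all genes called, 8 against gFBXW7, was 5 with upper quartile scaling, 33 without the filter, 32 by DESeq2, 3 by limma on log2 of RPKM plus 1, 0 in the 6 libraries alone, 2 with the replicate block, 125 with 1 surrogate variable and 0 to 7 with single libraries left out. The 7 against gLuc became 21 without the filter, 24 by DESeq2, 4 by limma, 2 in the 6 libraries alone, 2 with the replicate block, 54 with the surrogate variable and 2 to 8 with single libraries left out, and the 0 in gFBXW7 against gLuc became 1 by DESeq2. The member median stayed within -0.30 to -0.15, -0.46 to -0.23 and -0.14 to 0.03 in the 3 comparisons with single libraries left out. No scaling moved the median of all genes by over 0.1. Of 55 gene results 41 never changed sign in 1003 alternatives in all. In gFBXW7 + gKMT2D against gFBXW7, SP100 (-0.001) turned to 0.01 with DESeq2 size factors, a filter at a mean of 50 reads or the DESeq2 test, 0.003 with upper quartile scaling and 0.02 in the 6 libraries alone, and EIF2AK2 to -0.02 by limma. With 1 surrogate variable BST2 was at -0.16 and SP100 at -0.12 against gLuc, and in gFBXW7 against gLuc SAMHD1 was at 0.04, STAT2 at 0.12, SP100 at -0.02 and ISG15 at -0.08. With single libraries left out the ranges that crossed 0 were, against gFBXW7, -0.82 to 0.13 for OAS2, -0.44 to 0.21 for SP100, -0.10 to 0.12 for EIF2AK2, -0.10 to 0.12 for IRF9 and -0.29 to 0.09 for MX1. Against gLuc they were -0.66 to 0.02 for ISG20, -0.36 to 0.03 for UBE2L6, -0.19 to 0.44 for BST2 and -0.24 to 0.40 for SP100, and in gFBXW7 against gLuc -0.12 to 0.04 for STAT2, -0.08 to 0.56 for ISG15 and -0.61 to 0.39 for OAS2. The causes were not tested. OAS1, OAS2, IFITM3 and ISG15 had too few counts for a filter at a mean of 50 reads. Depth limits the 20 untested members, where a difference was not detectable.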
